A study of Homo sapiens with 10 samples.

Results

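The 34 genes described here encode the machinery that prepares, starts and carries out DNA replication in S phase, and the factors that supply and time it. They were taken by name: MCM2 to MCM7 and MCM10, PCNA, CDC6, CDT1, CDC45, GINS1 to GINS4, RRM1, RRM2, TYMS, CCNE1, CCNE2, E2F1, ORC1, POLA1, POLE, POLD1, RFC2, RFC4, FEN1, LIG1, UHRF1, DTL, CLSPN, SLBP and TK1. All 34 were among the 58870 genes of the count table, and all 34 passed the filter on low counts. The 34 genes were chosen with earlier results of these data known, so counts among them describe a chosen set. They were followed in LS180, a cell line established from a human colorectal cancer. The cells carried CRISPR interference, in which a guide RNA leads a Cas9 that cannot cut to a promoter, where it blocks transcription. The data were 10 mRNA sequencing libraries from 5 stable lines. Lines NTC1 and NTC2 held guides with no target, and lines sg1, sg2 and sg3 each held a guide to RNASE1. RNASE1 encodes a secreted ribonuclease. Every line had 1 library lettered A and 1 lettered B. All 5 lines carry the interference system, no drug was given, and each guide is represented by a single line, so that a guide and the line that carries it cannot be told apart. The labels do not say what the letters stand for or whether A and B were separate cultures. A p-value here therefore reflects only how these libraries vary, and that variation may be technical.

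Replication is prepared in G1, when the origin recognition complex (with ORC1), CDC6 and CDT1 load the MCM2 to MCM7 hexamer onto DNA, a step called licensing. In S phase CDC45 and the GINS complex join the hexamer to form the active helicase, MCM10 helps to activate it, and DNA polymerases alpha, delta and epsilon copy the strands behind it. Many of these genes are targets of the E2F transcription factors, which cyclin E and its kinase help to release at the G1/S boundary.

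The regulatory sequence that links many of these genes is shown first, since the results below follow the genes as a group. Promoter windows of 300 bases, from 250 before to 50 after a transcript's start, were taken from RefSeq on GRCh38.p14 and matched 30 of the 34 genes. MCM4, MCM5, GINS4 and CCNE2 had no entry. An E2F-type motif (TTCCCGC or TTGGCGC on either strand) was present in at least 1 window of 23 of the 30 genes, or 76.7%. Among all 27305 genes with a window the share was 11%, and among all 35116 windows, each of the same length, it was 9.23%. This background holds genes whether or not they are expressed in these cells, and the share among expressed genes was not taken. The pentamer CCAAT, the core of the NF-Y motif, was present in 19 of 30 (63.3%, against 39.7% of all genes). A CHR-type hexamer (TTTGAA or TTCGAA), which is typical of genes of G2 and mitosis, was present in 2 of 30, MCM6 and RRM1 (6.67%, against 19.5%). The genes with no E2F-type match in these windows were MCM2, MCM10, CDC45, POLD1, FEN1, CCNE1 and SLBP. A match is a description of letters and not a bound site. Only the exact sequences given were searched, so a gene without a match may still hold a variant of the motif.

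The windows of the gene with the smallest p for the difference between letters in each of 5 roles follow, written in the direction of transcription with E2F-type and CCAAT matches in capitals.
UHRF1: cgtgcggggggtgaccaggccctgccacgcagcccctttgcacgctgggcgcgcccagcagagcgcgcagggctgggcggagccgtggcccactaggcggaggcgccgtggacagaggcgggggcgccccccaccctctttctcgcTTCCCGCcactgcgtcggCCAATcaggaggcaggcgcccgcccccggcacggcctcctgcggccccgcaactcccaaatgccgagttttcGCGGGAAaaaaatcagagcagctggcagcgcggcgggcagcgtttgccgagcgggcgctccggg
ORC1: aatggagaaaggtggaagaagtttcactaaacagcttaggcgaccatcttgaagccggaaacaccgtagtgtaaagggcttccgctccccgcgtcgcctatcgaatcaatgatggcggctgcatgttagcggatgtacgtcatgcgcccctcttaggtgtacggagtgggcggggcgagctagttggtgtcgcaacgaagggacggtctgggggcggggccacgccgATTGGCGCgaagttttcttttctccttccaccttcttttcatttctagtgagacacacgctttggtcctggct
POLE: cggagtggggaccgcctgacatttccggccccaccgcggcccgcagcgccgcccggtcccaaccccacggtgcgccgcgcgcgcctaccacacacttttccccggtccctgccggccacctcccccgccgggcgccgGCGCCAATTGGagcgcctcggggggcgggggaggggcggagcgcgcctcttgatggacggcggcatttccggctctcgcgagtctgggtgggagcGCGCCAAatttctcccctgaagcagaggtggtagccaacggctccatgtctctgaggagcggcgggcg
MCM10: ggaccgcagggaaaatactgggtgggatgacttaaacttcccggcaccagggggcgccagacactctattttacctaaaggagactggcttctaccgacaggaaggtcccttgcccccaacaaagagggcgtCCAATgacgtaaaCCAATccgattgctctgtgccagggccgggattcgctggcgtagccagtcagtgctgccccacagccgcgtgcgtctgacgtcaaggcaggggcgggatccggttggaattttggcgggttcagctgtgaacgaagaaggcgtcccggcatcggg
TK1: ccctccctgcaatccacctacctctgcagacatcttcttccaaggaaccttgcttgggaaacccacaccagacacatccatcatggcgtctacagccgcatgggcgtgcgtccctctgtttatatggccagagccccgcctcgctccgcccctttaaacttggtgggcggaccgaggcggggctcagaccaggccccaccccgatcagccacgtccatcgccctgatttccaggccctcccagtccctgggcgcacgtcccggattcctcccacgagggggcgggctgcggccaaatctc
The UHRF1 window lies at chr19:4909251-4909550, plus strand, and holds TTCCCGC with its first base 104 bases before the start, the same motif on the other strand 14 bases before the start, and a CCAAT between them. The ORC1 window (chr1:52404374-52404673, minus strand) has a TTGGCGC 22 bases before the start, and a CCAAT on the other strand overlaps it. The POLE window (chr12:132687293-132687592, minus strand) has an E2F-type match 113 bases and another 18 bases before the start, the upstream one overlapping CCAAT. The MCM10 window (chr10:13161308-13161607, plus strand) has a pair of CCAAT matches and no E2F-type match. The TK1 window (chr17:78187155-78187454, minus strand) holds neither; a second start listed for TK1 does hold an E2F-type match, shown next.

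Short stretches around the E2F-type match of other genes that differed between letters are shown for their flanks and positions. The cores are alike because exact matches were searched. For genes with several matches, the one listed first along the promoter is shown.
CDC6: cattcggatTTGGCGCgagcgcggc
CDT1: agggcgcccGCGGGAAatttggcgg
MCM3: atggtacgtTTCCCGCcaccgcggg
MCM6: gctttgcatTTGGCGCgaaatccct
POLA1: catcacaggGCGCCAAacgcgcgtc
LIG1: tcaccccttTTCCCGCcctcctccc
DTL: gactccaggTTCCCGCggctgggag
CLSPN: tctggctggGCGGGAAagcaagaac
TYMS: gggacggccGCGGGAAaaggcgcgc
TK1: gcggtcggcGCGGGAAccaggggct
The match began 8 bases after the start in CDC6, 5 before it in CLSPN, 39 before it in TYMS, 12 before the second start of TK1, 35 before it in CDT1, 151 before it in MCM6 and 173 before it in MCM3. The motif was found in 11 of 14 genes higher in B, in 2 of 2 lower in B and in 10 of 14 that did not pass the test.

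Library totals ranged from 39026605 to 45050991 expected counts, and levels are given as CPM, the depth-scaled count of edgeR, after TMM scaling. RNASE1 was lower in every guide library (1.02 to 3.75 CPM) than in every NTC library (16.4 to 23.7 CPM). Between guide and NTC lines its log2 fold change was -3.26 (SE 0.23; edgeR quasi-likelihood test, adjusted p = 8.25e-05). All 12 colorectal epithelial markers had a mean of at least 1 CPM. The markers summed to 3.94 to 5.58 CPM for 8 fibroblast genes, to 0.832 to 2.23 CPM for 6 endothelial genes, and to 35.9 to 47.0 CPM for 7 leukocyte genes, of which LYZ alone took 34.2. Counts of the A and B library of a line varied 10.7 to 22.0 times more than sampling alone gives, so no pair looked like repeats of a single library.

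The 34 genes together took 0.512% to 0.518% of counts in the A libraries and 0.540% to 0.554% in the B libraries. Per kilobase of transcript, the mean level over the 10 libraries was highest for PCNA, the sliding clamp, at 248 CPM per kb. MCM7 (207 CPM per kb), TYMS (197), TK1 (163) and RRM2 (161) came next. The lowest levels per kilobase were those of CCNE2 (5.59 CPM per kb), CLSPN (8.39), GINS4 (8.78) and MCM10 (9.71). Subunits that act in equal copies did not have equal mRNA levels per kilobase. The length used is the median of annotated transcripts, and the transcript forms present in these cells were not measured. Across MCM2 to MCM7 the level per kilobase ran from 68.0 for MCM6 to 207 for MCM7, and across the 4 GINS genes from 8.78 for GINS4 to 29.9 for GINS2. A few levels are uncertain because reads were shared with other genes. UHRF1 had fractional counts in 10 libraries, RRM2 in 9 and POLD1 in 7 (fractions arise where reads are divided between genes). Exons of MCM2, MCM7, GINS2, GINS3, GINS4, RFC4, FEN1, LIG1, RRM1, TYMS, CCNE2 and CLSPN overlap a gene on the other strand in libraries that do not mark strand. The counts of these 12 genes were nevertheless whole in all 10 libraries, and the genes that overlap LIG1, RRM1 and CLSPN had a mean count of 0.0. FEN1 also overlaps FADS2 on its own strand, with mean counts of 7583 for FEN1 and 17858 for FADS2.

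No replication gene was called different between RNASE1 guide lines and NTC lines, and the intervals were narrow. With A and B summed per line and 3 guide lines set against 2 NTC lines, 0 of the 34 genes passed the edgeR quasi-likelihood test at adjusted p under 0.05, against a background of 0.0231% (4 of 17337 genes). One gene, CCNE1, had an unadjusted p under 0.05 (7.99% of all genes did), and DESeq2 also called 0, with 1 gene under an unadjusted p of 0.05. The log2 differences ran from -0.13 to 0.07 with a median of -0.00. Over the 34 genes the 95% intervals reached no lower than -0.22 and no higher than 0.16 on the log2 scale. By role, the median log2 difference was -0.00 for the 9 licensing genes, -0.00 for the 6 genes of helicase activation and 0.01 for the 8 genes of polymerases, clamp and lagging strand. It was -0.01 for the 4 nucleotide supply genes, -0.03 for the 3 genes of G1/S control and 0.00 for the 4 genes of S phase turnover, checkpoint and chromatin.

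CCNE1 encodes cyclin E1, the partner of CDK2 at S phase entry, and lies on chromosome 19 from 29811898 to 29824308 on the plus strand of GRCh38. It had line means of 29.2 CPM in NTC1 and 28.5 in NTC2, and of 27.3 in sg1, 25.8 in sg2 and 25.9 in sg3. The line means of the arms did not overlap. CCNE1 was singled out by its p, and the share of all genes with such a separation was not taken. The log2 difference was -0.13 (SE 0.04), or -8.86% (95% interval -14.3% to -3.02%). It did not pass the edgeR quasi-likelihood test (adjusted p = 0.402). In a fit of the 10 libraries that has letter as a replicate block the value was again -0.13 (SE 0.04, edgeR adjusted p = 0.223). The related cyclin gene CCNE2 stood at -0.03 (95% interval -0.14 to 0.07), and E2F1, which encodes an activator of both cyclin genes, at -0.01 (-0.07 to 0.06).

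**Figure D1:**
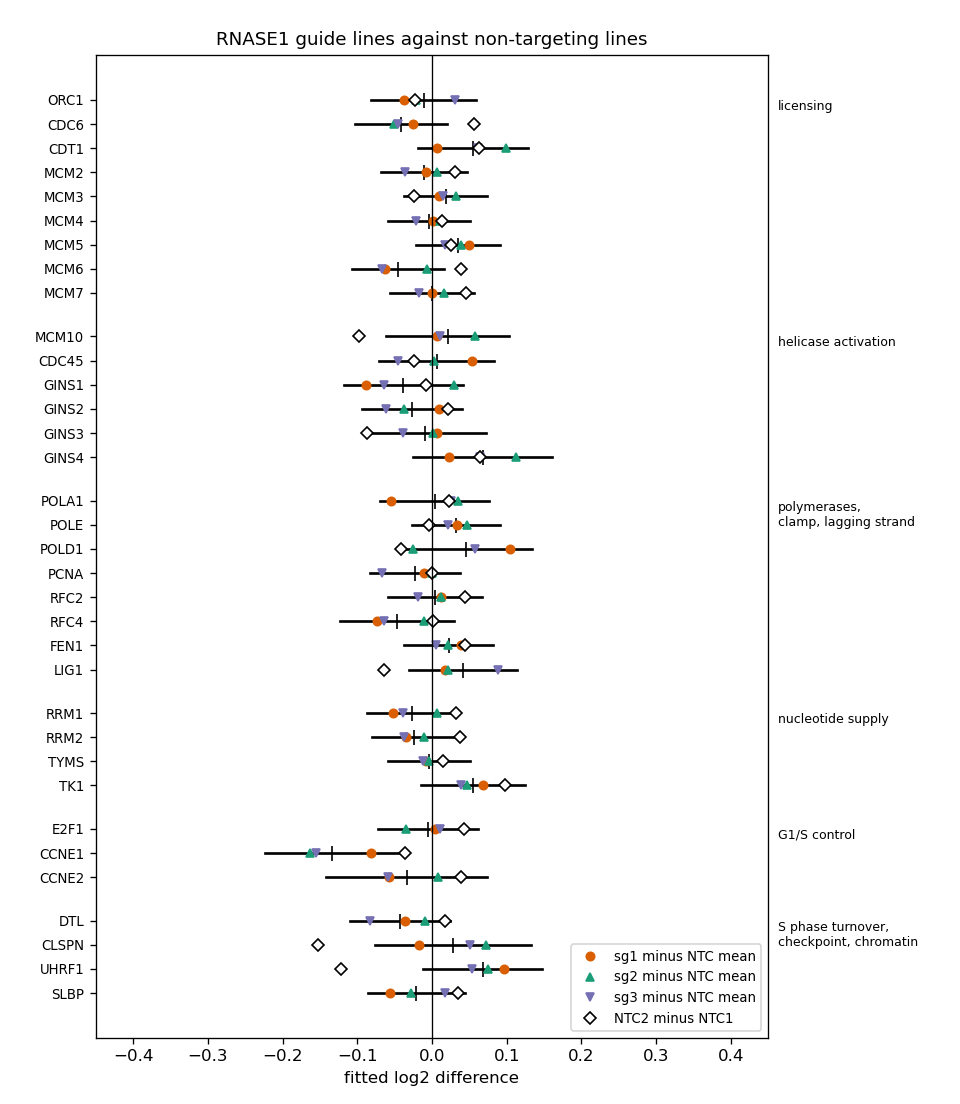
Fitted log2 difference (horizontal axis) of each of the 34 genes between RNASE1 guide lines and NTC lines, with genes grouped by role on the vertical axis. Black ticks and bars give the difference of arms and its 95% interval, coloured points each guide line against the mean of the NTC lines, and open diamonds NTC2 minus NTC1. The coloured points run from -0.16 to 0.11, and the tick of CCNE1 (-0.13) is the lowest.

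Single guides gave no call either. For sg1, sg2 and sg3, each against the mean of the NTC lines, edgeR called 0 of 34 genes (0 at an unadjusted p under 0.05) and DESeq2 called 0 (0). The background was 0.00609% in each, which is 1 gene of 16411, RNASE1. At an unadjusted p under 0.05 it was 2.30% for sg1, 1.82% for sg2 and 2.16% for sg3. The lowest value in sg2 and sg3 was that of CCNE1 (-0.16 in each), and in sg1 that of GINS1 (-0.09). The highest values were 0.10 for POLD1 in sg1, 0.11 for GINS4 in sg2 and 0.09 for LIG1 in sg3. These comparisons have wider errors, with a median SE of 0.07 against 0.03 for the arms. The letter was not a term in these fits, so the difference between letters remained in their errors. With the letter as a replicate block, edgeR called 0 of 34 genes in each (6, 2 and 6 of all 16411 genes). At an unadjusted p under 0.05 the block gave 1, 2 and 2 of 34 genes, and 2 for NTC2 against NTC1. The share of all genes under that p was not taken with the block. Between the NTC lines themselves 0 of 34 genes passed by edgeR or DESeq2 (background 0.00%; 0 at an unadjusted p under 0.05 by either, background 1.72%), and the values ran from -0.15 for CLSPN to 0.10 for TK1. The test of any difference among sg1, sg2 and sg3 also called 0 of 34 by edgeR and DESeq2 (background 0.00%; 0 at an unadjusted p under 0.05 by either, background 1.38%).

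In the other lists of cell cycle genes described below, 0 genes were called between the arms. At an unadjusted p under 0.05 the edgeR counts were 2 of 17 other licensing and origin firing factors, 1 of 21 other replisome subunits, 0 of 11 other nucleotide supply genes, 2 of 10 genes of chromatin assembly and maintenance methylation, 5 of 27 genes of G1/S and checkpoint control and 1 of 30 genes of G2 and mitosis. Over all 17337 genes the share under that p was 7.99%. CDKN1B, the kinase inhibitor p27, stood at -0.11 (SE 0.03, edgeR adjusted p = 0.3) and CDKN1A, the inhibitor p21, at 0.03 (0.872). The proliferation marker MKI67 stood at 0.15 (SE 0.07, edgeR adjusted p = 0.611) and TOP2A, topoisomerase II alpha, at 0.00 (0.997).

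Line means were close for most genes. The highest line mean exceeded the lowest by 1.01-fold for TYMS and by 1.13-fold for CCNE1, with a median over the 34 genes of 1.05-fold. NTC2 was the highest line for 14 of the 34 genes and the lowest for 7, and sg3 was the lowest for 10. For UHRF1 the lowest line was NTC2 (101 CPM) and the highest sg1 (113 CPM), and for CLSPN both extremes were NTC lines (32.0 CPM in NTC2 and 35.6 in NTC1).

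The letters separated the libraries where the guides did not. Within lines, 16 of the 34 genes were higher in B than in A, 2 were lower and 16 did not pass (edgeR quasi-likelihood test with line in the model, adjusted p under 0.05). Over all 16411 genes tested, 14.6% were higher in B and 15.0% lower, so the letters differ across the transcriptome and in both directions. These shares include genes at low counts, where a difference is harder to call. Among the 10755 genes with a mean of at least 5 CPM, 4816 were called in either direction, against 4848 of 16411 here. Of the 34 genes 20 were called in that fit, against 18 here. Shares at levels matched to the 34 genes were not taken. The median log2 difference of the 34 genes was 0.07, beside 0.00 over all genes. For 14 of them every B library lay above every A library (9.65% of all genes), and for 1, TYMS, every B library lay below every A library (9.59%). In each of the 5 lines taken alone, 24 to 27 of the 34 genes were higher in B, with medians from 0.07 to 0.13. The summed level of the 34 genes was 5162 to 5216 CPM in the A libraries and 5345 to 5482 CPM in the B libraries, with no overlap.

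**Figure D2:**
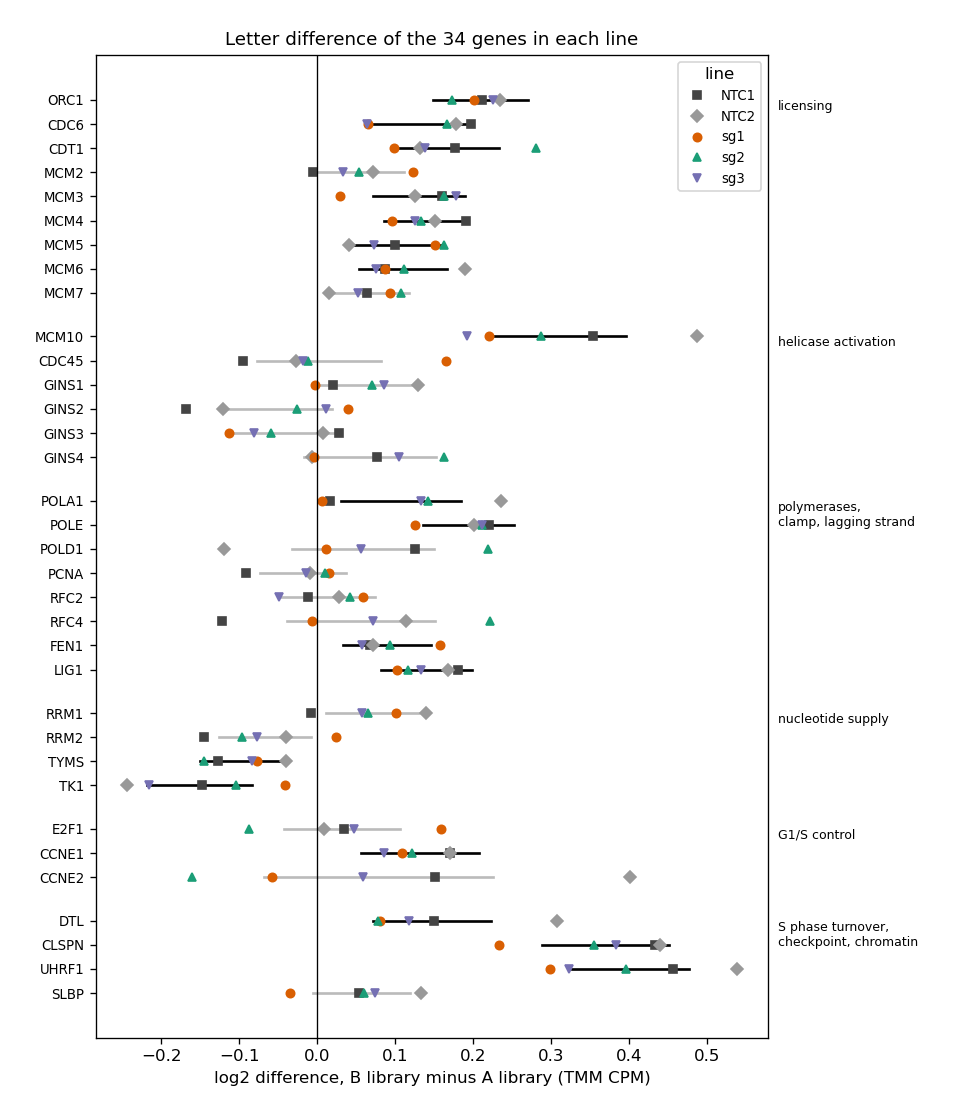
Log2 difference between the B and the A library of each line (horizontal axis, 1 symbol per line) for the 34 genes, grouped by role. Bars give the 95% interval of the fitted letter difference, black where it passed the test (adjusted p under 0.05) and grey where it did not. UHRF1, CLSPN and MCM10 lie farthest to the right, and TK1 and TYMS are left of 0 in all 5 lines.

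Licensing held 7 of the 16 genes that were higher in B. Of its 9 genes 7 were higher and 0 lower, at a median log2 difference of 0.13. Over all genes 14.6% were higher and 15.0% lower, the shares to set beside the count of each role here and below. ORC1 encodes the largest subunit of the origin recognition complex. It was at 54.9, 53.5, 53.3, 54.4 and 55.3 CPM in the A libraries of NTC1, NTC2, sg1, sg2 and sg3, and at 63.5, 62.98, 61.2, 61.3 and 64.7 CPM in the B libraries, in the same order, which holds for all lists of 5 values below. No A library reached any B library. The fitted log2 difference was 0.21 (SE 0.03, edgeR adjusted p = 0.000149), or 15.6% (95% interval 10.8% to 20.6%). CDT1, which brings the MCM hexamer to the origin, was at 73.4, 77.9, 77.5, 77.2 and 79.4 CPM in A and 82.9, 85.4, 83.01, 93.8 and 87.4 CPM in B. Its groups did not overlap, and the highest value was that of the sg2 B library. Its log2 difference was 0.17 (SE 0.03, edgeR adjusted p = 0.00142). CDC6, its loading partner, was at 101 to 107 CPM in A and 110.0 to 120 CPM in B, a log2 difference of 0.13 (edgeR adjusted p = 0.00408).

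Of the 6 hexamer subunits, MCM3, MCM4, MCM5 and MCM6 were higher in B by small amounts. MCM4 was at 355 to 369 CPM in A and 392 to 405 in B (log2 difference 0.14, edgeR adjusted p = 0.000936). MCM3 was at 353 to 371 CPM in A and 379 to 402 in B (0.13, adjusted p = 0.00283). MCM6 (0.11, adjusted p = 0.00638) and MCM5 (0.11, adjusted p = 0.00925) also passed with no overlap between letters. MCM7 stood at 0.07 (adjusted p = 0.0543) and MCM2 at 0.05 (adjusted p = 0.138), and neither passed. The call of MCM5 was lost without either library of sg2 (0.09 in each, adjusted p = 0.0576 without A and 0.0574 without B), and MCM7 passed without either library of NTC2 (0.08 in each, adjusted p = 0.0202 and 0.0196). With line in the model, a left-out library takes the letter difference of its line out of the fit. Here and below, such fits therefore bear on the line and not on the single library.

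Of the genes of helicase activation, 1 of 6 was higher in B and 0 were lower (14.6% and 15.0% of all genes). MCM10 was at 39.6, 35.1, 40.5, 40.9 and 41.1 CPM in the A libraries and 50.7, 49.3, 47.2, 49.97 and 46.9 CPM in the B libraries. The groups did not overlap, and the NTC2 A library was the lowest by a wide gap. The log2 difference was 0.31 (SE 0.04, edgeR adjusted p = 0.000135), or 23.8% (95% interval 16.4% to 31.7%). CDC45 and the GINS genes, whose products bind the hexamer beside MCM10 in the active helicase, did not pass. CDC45 was at 49.5 to 52.9 CPM in A and 48.9 to 55.7 in B (0.00, 95% interval -0.08 to 0.08). The values were 0.06 for GINS1, -0.05 for GINS2, -0.04 for GINS3 and 0.07 for GINS4, with adjusted p from 0.157 to 0.369.

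Among polymerases, clamp and lagging strand factors, 4 of 8 genes were higher in B and 0 lower. POLE encodes the catalytic subunit of polymerase epsilon, the main leading strand enzyme. It was at 89.1, 89.5, 94.3, 92.2 and 90.7 CPM in A and 104, 103, 103, 107 and 105 CPM in B, with no overlap and with sg1 showing the smallest step. This gave a log2 difference of 0.19 (SE 0.03, edgeR adjusted p = 0.000196). LIG1, the ligase that joins Okazaki fragments, was at 77.4 to 85.2 CPM in A and 86.9 to 93.4 in B (0.14, adjusted p = 0.00174). FEN1, the nuclease that trims their ends, was at 170.2 to 175 CPM in A and 178 to 192 in B (0.09, adjusted p = 0.0197). POLA1, the catalytic subunit of the priming polymerase alpha, was at 60.3 to 64.2 CPM in A and 62.8 to 71.0 in B, with overlap (0.11, adjusted p = 0.0373). POLD1, the catalytic subunit of polymerase delta (0.06, adjusted p = 0.337), the clamp loader genes RFC2 (0.01, 0.77) and RFC4 (0.06, 0.38) and the clamp PCNA itself (-0.02, 0.645) did not pass.

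POLA1 and FEN1 lost their calls when single libraries were left out. POLA1 was not called without either library of NTC2 (0.08 in each, adjusted p = 0.112 in each), sg2 (0.10 in each, adjusted p = 0.113 in each) or sg3 (0.10 in each, adjusted p = 0.119 without A and 0.13 without B). FEN1 was not called without sg1 A (0.07, adjusted p = 0.0556), sg2 A (0.09, 0.0668), sg2 B (0.09, 0.0667) or sg3 B (0.10, 0.0554).

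Of the 4 nucleotide supply genes, 0 were higher and 2 lower in B. TK1 encodes thymidine kinase, the salvage enzyme for thymidine. It was at 187, 206, 196, 197 and 203 CPM in the A libraries and 169, 174, 190.2, 183 and 175 CPM in the B libraries. B was below A in each line, though the sg1 B library was above the NTC1 A library. The log2 difference was -0.15 (SE 0.03, edgeR adjusted p = 0.00274), or -9.93% (95% interval -14.1% to -5.60%). TYMS, thymidylate synthase, which makes the same nucleotide from deoxyuridine monophosphate, was at 273, 267, 268, 275 and 268 CPM in A and 249.6, 260.00, 254, 248 and 253 CPM in B. These groups did not overlap, and the log2 difference was -0.09 (SE 0.03, edgeR adjusted p = 0.0137). RRM1 and RRM2, the subunits of ribonucleotide reductase, did not pass and had opposite signs, at 0.07 (adjusted p = 0.0719) and -0.07 (adjusted p = 0.0837). The TYMS call was lost without sg2 A (-0.08, adjusted p = 0.0639), sg2 B (-0.08, 0.0641), NTC1 B (-0.09, 0.0561) or sg3 B (-0.10, 0.0538). It was kept without NTC1 A or sg3 A, which removes the letter difference of the same lines. RRM1 passed without NTC1 A (0.09, 0.0473), and RRM2 passed without either library of sg1 (-0.09 in each, 0.0181 and 0.0176).

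Of the genes of G1/S control, 1 of 3 was higher in B. CCNE1 was at 27.5, 26.8, 26.2, 24.7 and 25.1 CPM in A and 30.9, 30.2, 28.3, 26.8 and 26.7 CPM in B. It was higher in B in all 5 lines, while the groups overlapped because the NTC lines were higher than the guide lines in both letters. The log2 difference was 0.13 (SE 0.04, edgeR adjusted p = 0.0125), and the call was lost without NTC1 A (0.12, adjusted p = 0.0591) or NTC1 B (0.12, 0.0596). E2F1 stood at 0.03 (95% interval -0.04 to 0.11) and CCNE2 at 0.08 (-0.07 to 0.23), and neither passed. CCNE2, with the lowest level per kilobase of the 34 genes, was at 13.5 to 17.8 CPM and had the widest interval.

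The largest differences, those of UHRF1 and CLSPN, were in the role of S phase turnover, checkpoint and chromatin, where 3 of 4 genes were higher in B and 0 lower. UHRF1 encodes a protein that reads hemimethylated DNA behind the fork and recruits DNMT1 to copy the methylation. It was at 92.9, 82.6, 101, 96.1 and 97.4 CPM in the A libraries and 127, 119.97, 125, 126 and 122 CPM in the B libraries, with no overlap and the lowest value in NTC2 A. The log2 difference was 0.40 (SE 0.03, edgeR adjusted p = 7.14e-06), or 32.2% (95% interval 25.5% to 39.2%). CLSPN encodes claspin, an adaptor at the fork that passes the checkpoint signal from ATR to CHK1. It was at 30.3, 27.2, 30.7, 31.2 and 30.4 CPM in A and 40.9, 36.9, 36.1, 39.9 and 39.6 CPM in B, again with no overlap. B exceeded A by 0.37 on the log2 scale (SE 0.04, edgeR adjusted p = 1.97e-05), or 29.2% (95% interval 22.2% to 36.7%). DTL, the receptor of the ubiquitin ligase that removes CDT1 in S phase, was at 70.1 to 75.4 CPM in A and 76.6 to 86.8 in B (0.15, SE 0.04, edgeR adjusted p = 0.00631). SLBP, which binds the stem loop of histone mRNAs, stood at 0.06 (adjusted p = 0.16) and did not pass, but did so without sg1 B (0.08, adjusted p = 0.0404).

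**Figure D3:**
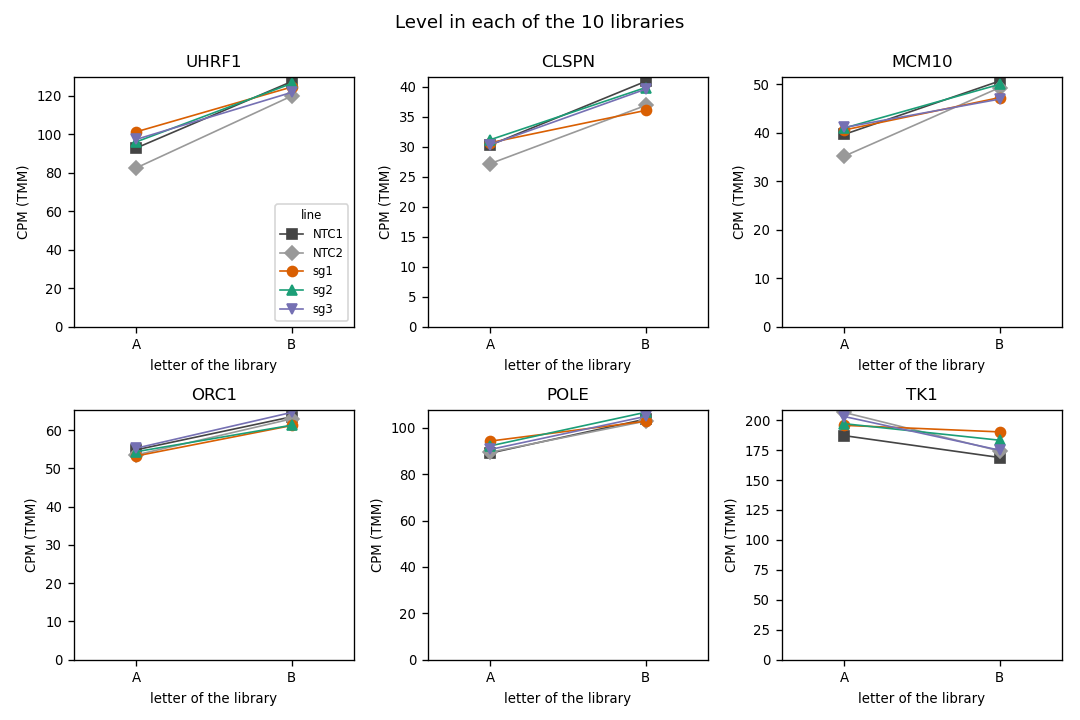
Level in TMM-scaled CPM (vertical axes, from 0) in the A and B library of each of the 5 lines (joined points) for UHRF1, CLSPN, MCM10, ORC1, POLE and TK1. B is higher than A in all 5 lines in the panels of UHRF1, CLSPN, MCM10, ORC1 and POLE, and lower in all 5 in that of TK1.

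Transcript length moved with the letter difference, across genes in general and across these 34. Over the 34 genes the letter difference and the median transcript length had a Spearman correlation of 0.65 (Pearson 0.61). Over 9523 genes at 10 CPM or more it was 0.44 (Pearson 0.41). Those points share the same 10 libraries, so the values are descriptions. For GC content the Spearman correlations were -0.05 and 0.03. Genes of 1000 to 2000 bases had a median log2 difference of -0.06, and the 8 replication genes in that range had 0.00. Genes of 3000 to 4000 bases had a median of 0.02, and the 11 replication genes of that length had 0.13. TK1 and TYMS are among the short transcripts, and POLE and POLA1 among the long ones. Other genes went against this trend. CCNE1 (1680 bases) was higher in B at 0.13, and RRM2 (3432.5 bases), which did not pass, stood at -0.07.

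**Figure D4:**
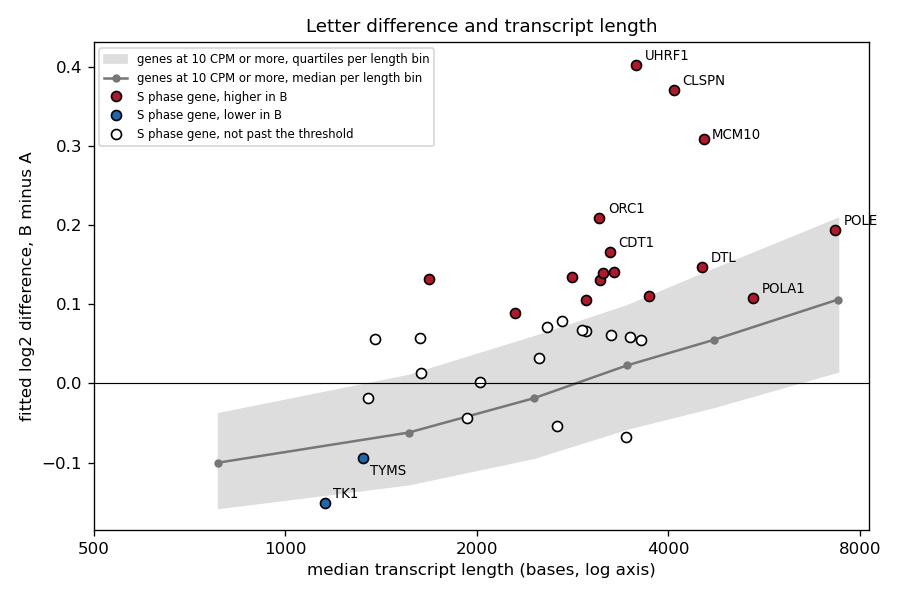
Fitted log2 difference of B against A (vertical axis) of the 34 genes against median transcript length (horizontal log axis), filled where the gene passed the test. The grey line and band give the median and quartiles of 9523 genes at 10 CPM or more in 6 length bins. UHRF1, CLSPN, MCM10 and ORC1 are among the genes above the band of their length. TYMS, POLA1 and POLE lie within it, while TK1 (-0.15) and RRM2 (-0.07) lie just below it.

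When library-specific length trends were removed before the fit, 18 of the 34 genes passed, beside 4319 of all 16411 genes. This correction was chosen after the values had been seen. UHRF1 stood at 0.37 (edgeR adjusted p = 4.02e-06), CLSPN at 0.33 (2.23e-05), MCM10 at 0.25 (0.000242), ORC1 at 0.19 (0.000226), CDT1 at 0.14 (0.00301) and CDC6 at 0.13 (0.00392). TK1 stood at -0.09 (0.03). POLE fell from 0.19 to 0.08 (0.0362) and missed the threshold once GC content was corrected too (0.06, adjusted p = 0.0747). POLA1 (0.03, adjusted p = 0.599) and TYMS (-0.04, 0.256) were not called after the length correction. RRM2 (-0.10, 0.0167) and SLBP (0.10, 0.0261) were called after it.

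The other genes of these pathways, from lists that do not include the 34, followed a mixed pattern. Their values here and below were not corrected for transcript length, and its part in them was not tested. Of 17 other licensing and origin firing factors, 5 were higher in B and 3 lower, with a median of 0.05. Over all genes 14.6% were higher and 15.0% lower, the shares to set beside the count of each list here and below. TICRR (0.33, edgeR adjusted p = 3.44e-05) and TOPBP1 (0.24, 0.000138), which act together in origin firing, were at 35.6 to 39.6 and 64.8 to 70.0 CPM in A and at 44.2 to 49.0 and 75.9 to 84.3 CPM in B. The smaller subunits of the origin recognition complex ORC4 (-0.14, 0.00339), ORC5 (-0.17, 0.00371) and ORC2 (-0.15, 0.0117) were lower in B, opposite to ORC1. Of 21 other replisome subunits, 4 were higher and 6 lower, with a median of -0.05. RFC1, the large subunit of the clamp loader, was higher (0.32, adjusted p = 0.000171), and the small subunits POLE3 of polymerase epsilon (-0.16, 0.00109) and RPA3 of the single-strand binding complex (-0.19, 0.0023) were lower.

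Of 11 other nucleotide supply genes, 0 were higher and 5 lower, with a median of -0.04. DTYMK, which phosphorylates the product of TK1 and TYMS, was at 96.4 to 103 CPM in A and 84.7 to 90.7 CPM in B (-0.20, edgeR adjusted p = 0.000233). DUT, which makes the substrate of TYMS, was at 80.7 to 85.2 CPM in A and 72.9 to 76.8 CPM in B (-0.17, 0.00101). DCK (-0.14, 0.0104), DCTPP1 (-0.10, 0.0434) and IMPDH2 (-0.07, 0.0497) were the others. Of 10 genes of chromatin assembly and maintenance methylation, 7 were higher and 1 lower, with a median of 0.16. DNMT1, the methyltransferase that UHRF1 recruits, was at 198 to 220 CPM in A and 242 to 260 CPM in B (0.25, 3.54e-05). CHAF1A, the large subunit of the histone chaperone at the fork, was higher (0.27, 2.91e-05) and ASF1A, which hands histones to it, was lower (-0.23, 0.00195).

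Of 27 other genes of G1/S and checkpoint control, 9 were higher and 4 lower (14.6% and 15.0% of all genes), with a median of 0.05. CDKN1A was at 215 to 228 CPM in A and 174 to 188 CPM in B (-0.28, edgeR adjusted p = 8.6e-06). The repressor genes E2F8 (0.28, 9.27e-05) and E2F7 (0.27, 0.000349) and the pocket protein gene RBL1 (0.28, 0.000245) were higher in B, and CCNA2, cyclin A2, was lower (-0.17, 0.000598). CDKN1B did not pass (-0.03, 0.59).

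A comparison list of 30 genes of G2 and mitosis had 3 genes higher and 11 lower in B and a median of -0.05. CCNB1, cyclin B1, was at 277 to 292 CPM in A and 238 to 255 CPM in B (-0.24, edgeR adjusted p = 2.98e-05). BIRC5, survivin, stood at -0.24 (5.58e-05) and AURKA, Aurora kinase A, at -0.19 (0.000566). The genes higher in B were CENPF (0.24, 0.000881), MKI67 (0.23, 0.00118) and KIF11 (0.13, 0.0137), and TOP2A did not pass (0.09, 0.104). The difference between these lists was not itself tested, and their values were not corrected for transcript length. The summed level of the 12 colorectal epithelial markers also moved with the letter, at 7894 to 8116 CPM in A and 6529 to 7543 CPM in B, with 4 of 12 genes higher and 4 lower in B, and its part in the results above was not tested.

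Whether the letter difference was the same in both arms was tested directly. For the difference between the letter effect in guide lines and that in NTC lines, 0 of 34 genes passed the edgeR quasi-likelihood test (background 0.00%), and 5 were under an unadjusted p of 0.05 (background 5.73%). DESeq2 called 0 (1 at an unadjusted p under 0.05). The 5 genes were CCNE2 (-0.33, SE 0.11), MCM10 (-0.19, SE 0.07), UHRF1 (-0.16, SE 0.06), GINS2 (0.15, SE 0.06) and DTL (-0.14, SE 0.06), with adjusted p of 0.866 or 0.867. For UHRF1 the B library exceeded the A library by 0.46 in NTC1 and 0.54 in NTC2, and by 0.30 in sg1, 0.40 in sg2 and 0.32 in sg3. For MCM10 the values were 0.35 and 0.49 in the NTC lines and 0.22, 0.29 and 0.19 in sg1, sg2 and sg3. In both genes the NTC lines lay above the guide lines without overlap, and neither gene passed. Both genes were singled out by their small p, and the share of all genes with such a separation was not taken. The median SE of this comparison over the 34 genes was 0.06, against 0.03 for the letter difference itself.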

How the data were processed

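Polyadenylated RNA of 10 LS180 libraries was sequenced, and the authors deposited expected counts for each gene in a single table, which its name credits to RSEM. Per the submitters' processing notes the build was hg38, and the tools were FastQC 0.11.2, TopHat2 2.0.8 and CASAVA 1.8.2. What each tool did, and which annotation was used, is not given in the sources used here. Reads that match several genes are split among them by RSEM, so shared or overlapping exons make counts uncertain. Of the values, 7.12% were not whole, and all were rounded before testing, which moved none by more than 0.5. Totals of 39026605 to 45050991 counts per library left the median SE of a letter difference at 0.03 (log2) over the 34 genes. Intervals cover the fitted spread between libraries or lines.

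Tests used edgeR 4.0.16 in R 4.3.3 (glmQLFit and glmQLFTest, TMM, filterByExpr, two-sided) on all genes, with Benjamini-Hochberg adjustment over all genes tested and a threshold of 0.05. The letter fit had line and letter as terms, the arms were tested on A and B summed per line, and single guides on 5 line means in 1 fit. SE is the fold change over the root of F. DESeq2 1.42.0, other scalings and filters, left-out libraries and lines, GC and length corrections were alternatives. Transcript length and GC content are medians over basic protein-coding transcripts of GENCODE 29 (58597 of 58870 identifiers matched). The scripts were tested on simulated counts of 16411 genes: for the letter comparison 30.0% of genes changed 1.1-fold and 100% of those changed 1.5-fold were recovered. In these simulations 17 of 182 letter calls and 17 of 189 calls between arms fell on unchanged genes. Both shares exceed the 0.05 that the threshold aims at.

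Letters pair the libraries: deviations from line means were correlated above 0.1 in 10 of 10 same-letter pairs over 9527 genes at 10 CPM or more (0.482 to 0.779), and in 4 of 10 over all 16411 genes tested (0.0335 to 0.147). All 34 genes could be named. Of other lists up to 6 genes per direction past the threshold were named by p, with MKI67, TOP2A, CDKN1A, CDKN1B and RNASE1 regardless. The 34 genes and all lists were chosen with earlier results of these data known.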

Additional observations from a re-analysis of the deposited data

Results flagged for a closer look

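In 6 of 68 groups of 5 same-letter libraries, 1 library lay apart from the other 4 by a gap above Dixon's critical value, and chance flags about 1 group in 20. NTC2 A was low for MCM10 (35.1 CPM, others 39.6 to 41.1) and for CLSPN (27.2 CPM, others 30.3 to 31.2), and high for MCM7 (621 CPM, others 591 to 598). NTC2 B was low for POLD1 (42.2 CPM, others 47.2 to 48.2), NTC1 A was low for GINS4 (23.8 CPM, others 25.2 to 25.6), and sg1 B was high for CDC45 (55.7 CPM, others 48.9 to 50.7). The letter differences of MCM10 and CLSPN stayed called without NTC2 A, and MCM7 was called without it (0.08, edgeR adjusted p = 0.0202).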

How the results depend on the processing

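Over 26 alternatives, 9 of the 18 letter calls held in all: MCM3, MCM4, MCM10, CDT1, ORC1, LIG1, UHRF1 and CLSPN higher in B, and TK1 lower. MCM6, CDC6, POLE and DTL held in all but 1. MCM5 held in 22, CCNE1 in 20, FEN1 in 19, TYMS in 17 and POLA1 in 13. These are not counts of independent checks. With line in the model, leaving out the A library, the B library or both libraries of a line removes the same letter difference. The number of genes lower in B was 2, and 1 without line sg2, without line sg3 or in the NTC lines alone. It was 3 by DESeq2 and without line sg1, where RRM2 was added. Without single libraries it ranged from 1 to 3. The number of the 34 genes called in either direction was 13 to 21 against 18. Over all genes it ran from 2641 in the guide lines alone to 5295 with the GC correction, against 4848. No named value that was called changed sign. CCNE2 was called in the NTC lines alone (0.28, adjusted p = 0.0183).

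With the letter as a replicate block, 0 of the 34 genes were called between arms (2 at an unadjusted p under 0.05), and 2 of all genes against 4 in the unblocked fit. It changed no call among the 34 genes in any comparison. Over all genes the count for the arms was 252 without a filter on low counts, 55 by DESeq2, 7 with a mean of at least 5 CPM, and 1 to 12 without single libraries, with 0 of the 34 called in each. For the letter effect between arms it was 101 without a filter, 4 with library totals only, 3 by DESeq2 and 2 with a mean of at least 5 CPM. At this depth 46.0% of simulated 1.1-fold differences between arms were recovered, so smaller differences may be missed. The simulated lines did not differ beyond the spread that remains with line and letter in the model. The share recovered among the real lines may therefore be lower.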
